A study of Mus musculus with 6 samples.

Results

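The genes examined here are those of the fibroblast growth factor (FGF) receptors and of the FGF ligands most often discussed in cartilage: the receptor genes Fgfr1, Fgfr2, Fgfr3 and Fgfrl1, the ligand genes Fgf1, Fgf2, Fgf7, Fgf10 and Fgf18, and Fgf13, a family member that acts inside the cell. They were taken by name, with every probe set that the array annotation gives to them, which made 20 of 45101 probe sets and 10 of 18193 genes. Their signals were measured in primary rib chondrocytes of newborn Slc39a13-KO mice on 3 arrays and of newborn wild-type mice on 3 arrays. The KO mice are homozygous for an allele in which a Neo cassette replaced several exons of Slc39a13, the gene of a zinc transporter of the SLC39/ZIP family, in every cell of the body, and the wild-type mice carry no altered allele by their label. Chondrocytes were freed with collagenase from the cartilaginous rib cage, strained and cultured with serum, with no cell sort described, and no growth factor treatment is named for either group. Nothing in the sources used here says that arrays are of separate mice or cultures. By Xist at least 1 array of each group is of another animal than the rest, so the spread behind the p-values is not wholly technical, but may be so for the other 2 arrays. The strain and sex are not given in the labels.

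Most FGFs are secreted and bind receptor tyrosine kinases on the cell surface together with heparan sulfate chains, after which the receptors signal through the adaptor FRS2 to RAS and ERK and through phospholipase C. In the growth plate FGFR3 is the receptor of proliferating chondrocytes and restrains their division, and activating mutations of human FGFR3 cause achondroplasia, a form of dwarfism. FGF18, made largely by the perichondrium, is regarded as a main ligand of FGFR3 in growing cartilage, while FGFR1 and FGFR2 are used more by the perichondrium, by osteoblast precursors and, for FGFR1, by hypertrophic chondrocytes.

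Of the 17 tested probe sets of these genes 3 differed between KO and wild-type chondrocytes, where 6.81% of all tested probe sets did. A probe set of Fgfr3 and one of Fgfrl1 were higher and one of Fgf13 was lower, and the second probe set of each of these genes did not pass. The stretch just before the most upstream annotated start of each of these 3 is shown because the results turn on these genes. The sequences are from RefSeq on build GRCm38.p6, 250 bases each, 5′ to 3′ on the strand of the gene. Capitals mark the GC box, GGGCGG or its reverse complement CCGCCC, which is the binding motif of SP1. The windows lie at chr5:33721474-33721723 on the plus strand for Fgfr3, at chr5:108693979-108694228 on the plus strand for Fgfrl1 and at chrX:59585573-59585822 on the minus strand for Fgf13.
Fgfr3: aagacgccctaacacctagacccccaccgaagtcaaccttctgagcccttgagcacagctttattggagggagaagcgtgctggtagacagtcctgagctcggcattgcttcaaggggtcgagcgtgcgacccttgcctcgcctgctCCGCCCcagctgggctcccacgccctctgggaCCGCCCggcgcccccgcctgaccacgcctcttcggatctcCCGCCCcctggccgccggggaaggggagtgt
Fgfrl1: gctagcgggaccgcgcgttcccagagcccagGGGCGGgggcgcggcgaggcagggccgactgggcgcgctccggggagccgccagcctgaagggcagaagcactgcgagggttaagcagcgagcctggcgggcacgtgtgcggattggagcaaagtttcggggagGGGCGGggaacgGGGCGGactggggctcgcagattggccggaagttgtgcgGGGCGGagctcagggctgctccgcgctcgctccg
Fgf13: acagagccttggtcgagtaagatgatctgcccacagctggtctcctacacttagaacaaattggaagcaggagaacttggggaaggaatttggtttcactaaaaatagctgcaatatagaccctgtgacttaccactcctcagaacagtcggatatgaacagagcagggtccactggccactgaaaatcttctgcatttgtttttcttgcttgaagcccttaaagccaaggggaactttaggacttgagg

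The window of Fgfr3 had 66.8% G and C and 3 GC boxes, and that of Fgfrl1 had 73.6% and 4 GC boxes. The window of Fgf13 had 45.6% and 0 GC boxes. Over all 32851 promoter windows of the same length the median was 52.4%, and 32.7% held at least 1 GC box on either strand. The ETS motif CCGGAAG was in the Fgfrl1 window alone of the 3 and in 6.91% of all windows, and the AP-1 motif TGANTCA was in none of the 3 and in 6.75% of all windows. Such matches describe the letters only. Fgf13 has other annotated starts, of which the windows at chrX:59567349-59567598 and chrX:59134437-59134686 had 74.8% and 74.4% G and C and 3 and 4 GC boxes. The window at chrX:59166089-59166338 had 40.4%, 0 GC boxes and 1 AP-1 motif, so the window shown does not stand for all of them. Fgfr3 has another annotated start, whose window at chr5:33722056-33722305 had 72.8% G and C and 2 GC boxes. Windows were matched for 8 of the 10 genes. Among genes with no call, those of Fgf18, Fgf2 and Fgf10 had 77.2%, 62.4% and 61.2% and 1 GC box each. Those of Fgfr2 and Fgf7 had 44% and 43.6% and 0 GC boxes.

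Values are linear MAS5 signals. The log2 fold change is that of signal + 7.96, KO minus wild type, which understates the change of dim probe sets, and was tested with limma. Adjusted p-values are from Benjamini-Hochberg adjustment over all 23294 probe sets that passed a filter on low values, at a mean log2 value of 5.80, or a signal of 47.9. Of the 20 probe sets 17, of 9 genes, passed the filter, and Fgf10 had no probe set that did. Signals of different probe sets depend on their probes and were not set against each other as levels.

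Slc39a13 itself had signals of 100.5, 196 and 165 in KO chondrocytes, against 901, 1081 and 991 in wild-type chondrocytes, a log2 fold change of -2.67 (standard error, SE, 0.22; adjusted p = 0.000535). The position of this probe set relative to the deletion is not known here. KO replicate 1 was unlike the rest, with correlations of 0.921 to 0.925 with the other arrays, against 0.944 to 0.96 among those 5, and its median signal was 108, against 80.7 to 88.4 on the others. Xist was high on KO replicate 2 (6445) and wild-type replicate 3 (5194), and between 79 and 107 on the other 4 arrays, so within each group 1 array came from the opposite sex. Of 10 chondrocyte markers 5 were higher in KO chondrocytes and 0 lower. The largest changes were those of Acan and Comp, which encode aggrecan and cartilage oligomeric matrix protein (log2 fold changes of 0.91 and 0.76). Fold changes were negative for 2, Matn1 (-0.4) and Chad (-0.35), and Sox9 was at 0.04, none of which passed. Col2a1, the brightest, did not pass either (0.5, adjusted p = 0.0835). The summed signal of the 10 was 159783 to 220506 on KO arrays and 109822 to 134812 on wild-type arrays. Of 9 tested mesothelial markers 8 were lower and 0 higher, with summed signals of 753 to 1340.3 on KO arrays and 4538 to 7522 on wild-type arrays. Fibroblast and perichondrium markers were higher for 5 and lower for 2 of 9, with summed signals of 73717 to 94496 and 52512 to 63849.8 on KO and wild-type arrays. Osteoblast markers were higher for 2 of 3 tested (Ibsp and Alpl, with log2 fold changes of 1.07 and 0.76) and lower for 0, with summed signals of 2117 to 3034 on KO arrays and 978 to 1474 on wild-type arrays. Of 3 tested adipocyte markers 1 was higher, Lpl (1.43), and 0 lower, with summed signals of 7705 to 8751 on KO arrays and 3748 to 4504 on wild-type arrays. Of 5 tested skeletal muscle markers 1 was higher, Tnnt3 (1.17), and 1 lower, Acta1 (-0.72), and 4 had negative fold changes. Summed signals of the muscle list were 2224 to 2683 on KO arrays and 2091 to 2165 on wild-type arrays. Tnnt3 alone had means of 1603 in KO and 707 in wild-type chondrocytes. Summed signals of macrophage, endothelial and epidermal markers overlapped between the groups. Of 5 tested macrophage markers 1 was lower, Cd14 (-1.55, adjusted p = 0.0419), and 0 higher. Of 3 tested epidermal markers 1 was lower, Krt14 (-2.61, adjusted p = 0.00588), and 0 higher. The 1 tested endothelial marker did not pass. In the lists whose sums did not overlap, Muc16, Dpt, Dmp1, Phex, Adipoq, Myh3, Myh8 and Myog were under the filter. The part of these differences in the results on FGF genes was not tested, and fewer cells of a type cannot be told apart from less RNA per cell in such bulk samples.

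Across the 17 tested FGF probe sets 2 were higher in KO chondrocytes, 1 was lower and 14 did not pass the test. Over all tested probe sets 6.81% passed, 3.44% higher (802) and 3.37% lower (785). At an unadjusted p under 0.05 limma gave 4 FGF probe sets higher and 1 lower. After centring each array on its median 0 FGF probe sets passed in either direction (2 higher and 2 lower unadjusted), and over all probe sets 131 were higher and 259 lower. The median log2 fold change of the 17 was 0.15, against 0.01 over all tested probe sets. Of the 10 receptor probe sets 8 had positive fold changes with a median of 0.22, and of the 7 ligand and Fgf13 probe sets 5 had negative ones with a median of -0.11. With 1 probe set per gene, the one with the highest mean, 0 of 9 genes were higher and 1 was lower (1 and 1 unadjusted, and 0 and 1 by the methods' t-test unadjusted), where 9.31% of all 12715 genes passed. The 2 calls of a higher signal thus stand on the dimmer probe sets of Fgfr3 and Fgfrl1. Without wild-type replicate 1, 2 or 3, left out in turn, 1 FGF probe set was higher and 0 were lower.

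**Figure D1:**
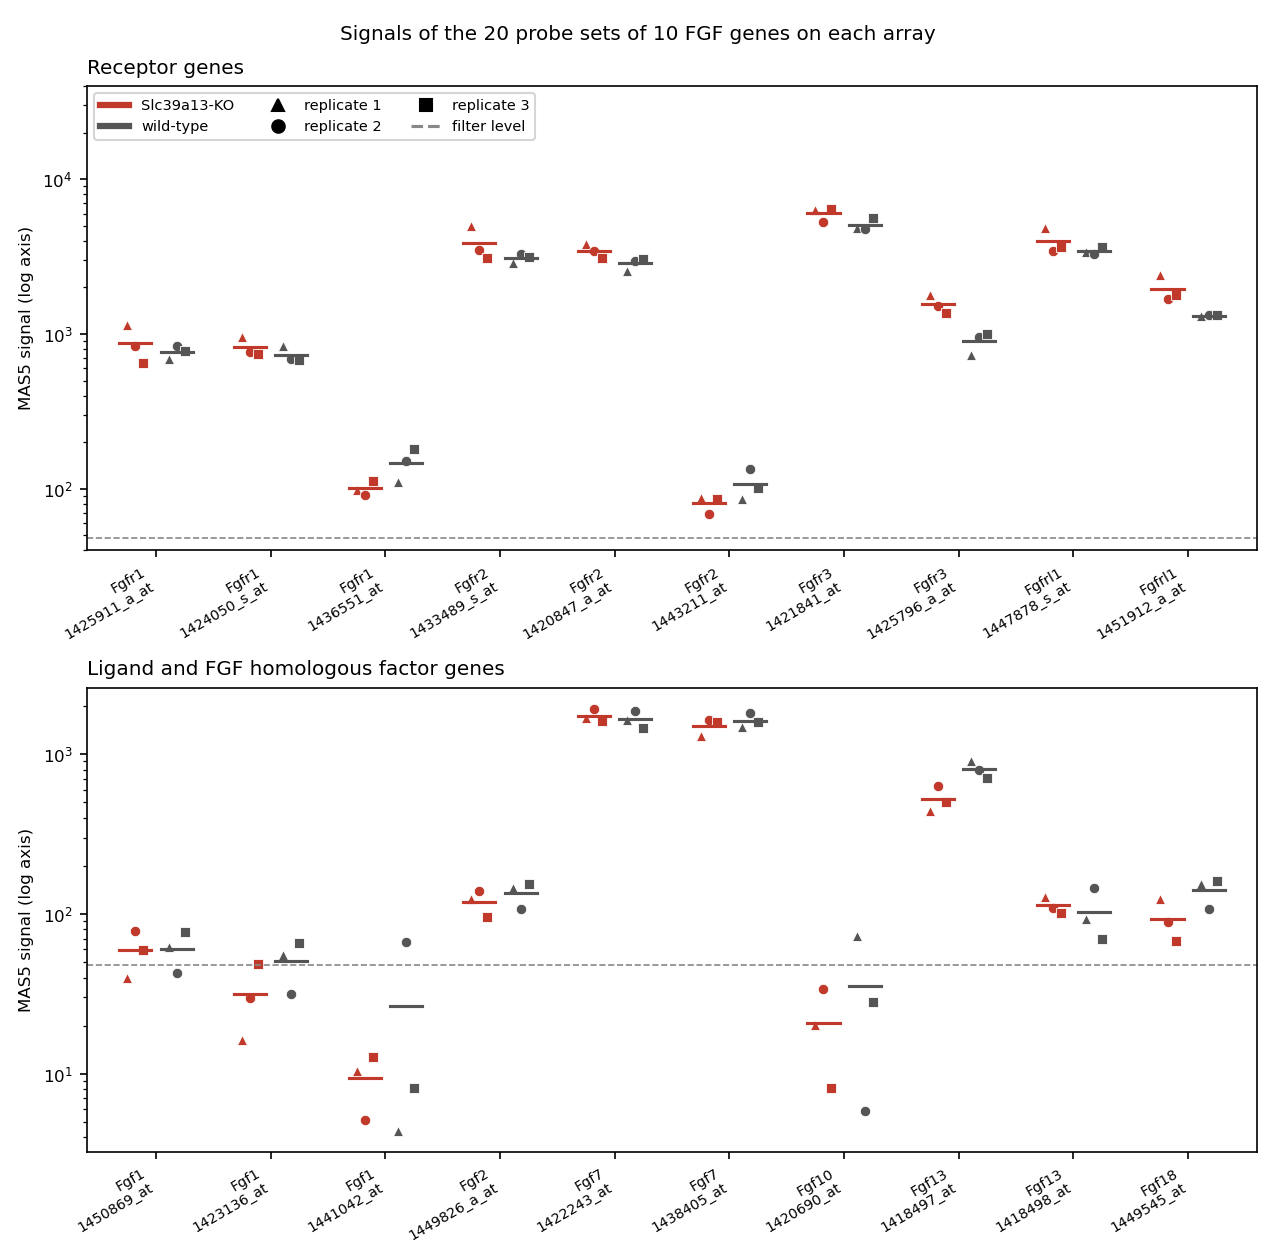
MAS5 signal (log axis) of each of the 20 probe sets of the 10 genes on each array, with KO arrays in red to the left of wild-type arrays in gray, a symbol for each replicate and a bar at the group mean. The dashed line is the filter level (47.9), and KO and wild-type arrays do not overlap for Fgfr2 1420847_a_at, Fgfr3 1425796_a_at, Fgfrl1 1451912_a_at and Fgf13 1418497_at among the 17 tested probe sets.

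Fgfr3 (gene 14184, chr5:33721724-33737068) is the receptor that restrains chondrocyte division, and it had 2 probe sets, both shown here. Probe set 1425796_a_at had signals of 1788, 1518 and 1371 in KO chondrocytes, against 737, 953 and 995 in wild-type chondrocytes. Every KO array lay above every wild-type array. The means were 1559 ± 211 in KO and 895 ± 138 in wild-type chondrocytes (SD, n = 3 arrays each), a 1.74-fold ratio and a log2 fold change of 0.80 (SE 0.14, 95% interval 0.49 to 1.11, adjusted p = 0.00995). With KO replicate 1, the least correlated array, left out, the log2 fold change was 0.70 (adjusted p = 0.0173). Within the pair of high-Xist arrays the difference was 0.61, and between the means of the 2 low-Xist arrays of each group it was 0.90. The call was lost with median centring (log2 fold change 0.70, adjusted p = 0.0685), without the trend of the variance (adjusted p = 0.0903) and with the methods' t-test (adjusted p = 0.143).

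The other Fgfr3 probe set, 1421841_at, had signals of 6361, 5313 and 6431 in KO chondrocytes, against 4833, 4795 and 5652 in wild-type chondrocytes. The groups overlap, since wild-type replicate 3 lies above KO replicate 2, the 2 arrays with high Xist. Its log2 fold change was 0.24 (SE 0.10, 95% interval 0.02 to 0.47) and did not pass the test (adjusted p = 0.189). Within the high-Xist pair it was -0.09, and between the low-Xist means 0.41. To compare the responses of the 2 probe sets, the log2 value of 1421841_at was subtracted from that of 1425796_a_at on each array. This difference was -2.22 to -1.8 on KO arrays and -2.7 to -2.32 on wild-type arrays, so that the groups did not overlap, and its means were 0.56 apart. The exact two-sided permutation test gave p = 0.10, the smallest that 3 arrays against 3 allow, for the 1 pair compared. The mean of both probe sets was higher in KO chondrocytes, by 0.52 on the log2 scale (adjusted p = 0.0172).

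The genes whose log2 values over the 6 arrays were most like those of Fgfr3 1421841_at were Slc7a2, a transporter of cationic amino acids, Prdm6, a PR domain gene, and Ggt5, a gamma-glutamyltransferase. Their Pearson correlations with it were 0.995, 0.987 and 0.983 over 6 arrays that share 2 genotypes. Their own log2 fold changes were 0.35, 0.66 and 0.48, none of which passed (adjusted p = 0.113, 0.131 and 0.199 over all genes). These are descriptions of the 6 arrays, picked as the highest of 12715 genes.

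Fgfrl1 (gene 116701, chr5:108694229-108706950) encodes an FGF-binding receptor that lacks the tyrosine kinase domain of the others. Probe set 1451912_a_at had signals of 2399, 1679.5 and 1777 in KO chondrocytes, against 1303, 1324 and 1325 in wild-type chondrocytes. All KO arrays lay above the wild-type arrays, which were within a narrow range, and KO replicate 1 was the highest. The means were 1952 ± 390.2 in KO and 1317 ± 12.4 in wild-type chondrocytes (SD, n = 3 each), a 1.48-fold ratio and a log2 fold change of 0.55 (SE 0.13, 95% interval 0.26 to 0.83, adjusted p = 0.0336). It was 0.39 without KO replicate 1 (adjusted p = 0.0239). The call was lost without wild-type replicate 1, 2 or 3 (adjusted p = 0.114, 0.123 and 0.103), with median centring (log2 fold change 0.45, adjusted p = 0.166), without the trend (adjusted p = 0.152) and with the methods' t-test (adjusted p = 0.204).

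The other Fgfrl1 probe set, 1447878_s_at, had signals of 4822, 3441 and 3665 in KO chondrocytes, against 3374, 3303 and 3623 in wild-type chondrocytes. Here only KO replicate 1 stood well above the rest, and the groups overlap. The log2 fold change was 0.20 (SE 0.12, 95% interval -0.07 to 0.47, adjusted p = 0.372), and 0.05 without KO replicate 1. The suffix _s_at marks probe sets that may bind transcripts of more than 1 gene.

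Fgfr2 (gene 14183, chr7:130162451-130266808), whose protein serves osteoblast precursors and perichondrium, had 3 probe sets, and none passed. Probe set 1420847_a_at had signals of 3806, 3463 and 3096 in KO chondrocytes, against 2566, 2978 and 3065 in wild-type chondrocytes. The groups did not overlap, by a gap of 3096 against 3065, and the log2 fold change was 0.27 (SE 0.10, 95% interval 0.04 to 0.49, adjusted p = 0.157). Probe set 1433489_s_at had signals of 4967, 3479 and 3108 in KO chondrocytes, against 2876, 3303 and 3135 in wild-type chondrocytes. These overlap, with a log2 fold change of 0.28 (SE 0.15, adjusted p = 0.305) that was 0.08 without KO replicate 1 and 0.42 without KO replicate 3. The dim probe set 1443211_at had a fold change of the other sign, -0.37 (SE 0.30, adjusted p = 0.516), from 68.6 to 86.9 on KO arrays and 85.9 to 135 on wild-type arrays.

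Fgfr1 (gene 14182, chr8:25518759-25575718), a receptor of perichondrium, osteoblasts and hypertrophic chondrocytes, also had 3 probe sets, none of which passed. Signals of 1425911_a_at were 1139, 831 and 649.7 in KO chondrocytes, against 691, 837 and 776 in wild-type chondrocytes. KO arrays were both the highest and the lowest of the 6, and the log2 fold change was 0.15 (SE 0.18, adjusted p = 0.671), or -0.06 without KO replicate 1 and 0.34 without KO replicate 3. Signals of 1424050_s_at were 955, 762 and 745 in KO chondrocytes, against 838, 686 and 679 in wild-type chondrocytes. The groups overlap there too, with a log2 fold change of 0.16 (SE 0.13, adjusted p = 0.531) that was 0.04 without KO replicate 1 and 0.25 without wild-type replicate 1. The dim 1436551_at was 91.5 to 113 on KO arrays and 110 to 181 on wild-type arrays, a log2 fold change of -0.48 (SE 0.27, adjusted p = 0.318).

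KO replicate 1 was the highest of the 6 arrays in 7 of the 10 receptor probe sets and in 0 of the 7 of the other genes. Over all tested probe sets it was the highest in 29.3%. Without this array the receptor probe sets 1425796_a_at of Fgfr3 and 1451912_a_at of Fgfrl1 still passed, at the values above.

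**Figure D2:**
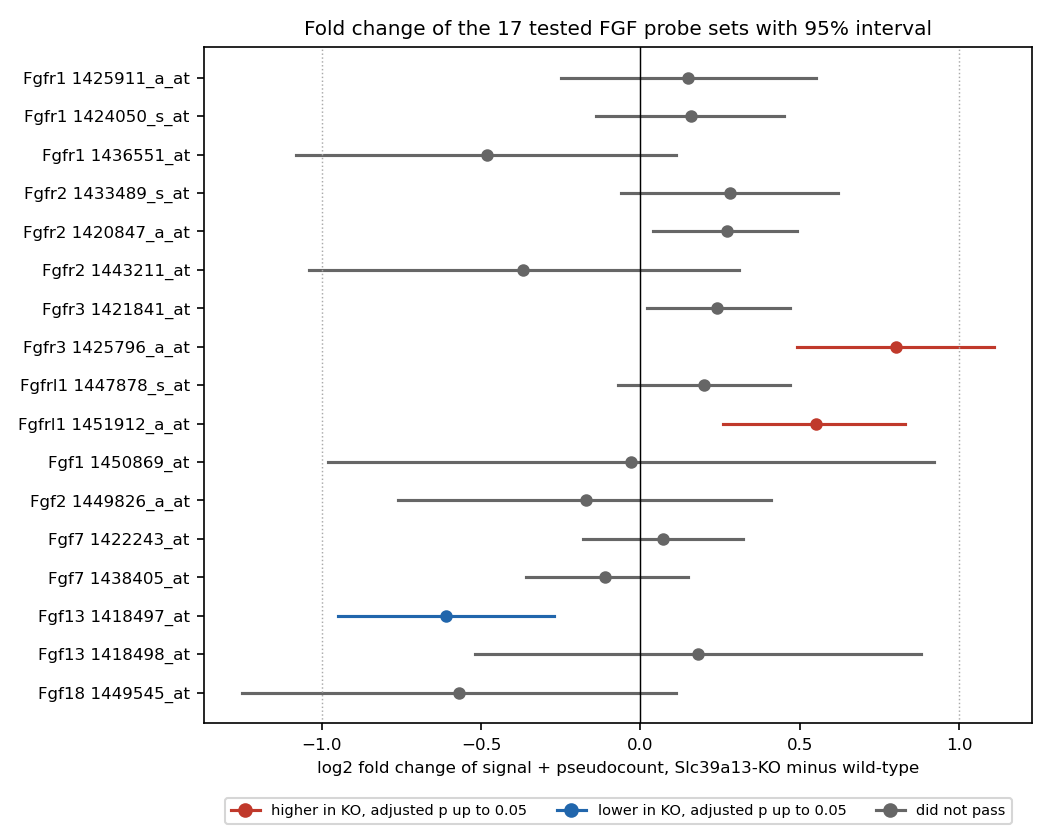
Log2 fold change of signal + pseudocount, KO minus wild type, of the 17 tested FGF probe sets, with points for the estimate and bars for the 95% interval from limma over 3 KO and 3 wild-type arrays. Red marks the 2 higher probe sets (Fgfr3 1425796_a_at and Fgfrl1 1451912_a_at), blue the lower one (Fgf13 1418497_at), gray the 14 that did not pass, and dotted lines a 2-fold change either way.

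Fgf18 (gene 14172, chr11:33116970-33147400), a main ligand of growing cartilage, had 1 probe set, 1449545_at. Its signals were 124, 89.3 and 67.4 in KO chondrocytes, against 155, 107 and 159.7 in wild-type chondrocytes. The groups overlap only in that KO replicate 1 lies above wild-type replicate 2. The means were 93.5 ± 28.5 in KO and 141 ± 29 in wild-type chondrocytes (SD, n = 3 each), and the log2 fold change of -0.57 did not pass (SE 0.30, 95% interval -1.25 to 0.11, adjusted p = 0.303). As single arrays were left out it lay between -0.78 without KO replicate 1 (adjusted p = 0.153) and -0.37 without KO replicate 3 (adjusted p = 0.483), and the interval with all arrays reaches past a 2-fold decrease.

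Fgf7 (gene 14178, chr2:126034658-126091185) and Fgf10 (gene 14165, chr13:118714699-118792573) are mesenchymal ligands that act on the epithelial splice form of FGFR2. Neither of the 2 probe sets of Fgf7 passed. Probe set 1422243_at had signals of 1680, 1928 and 1613 in KO chondrocytes, against 1640.5, 1870 and 1465 in wild-type chondrocytes, a log2 fold change of 0.07 (95% interval -0.18 to 0.32, adjusted p = 0.748) that was -0.02 with median centring. Probe set 1438405_at had signals of 1305, 1627 and 1579.9 in KO chondrocytes, against 1469.7, 1803 and 1581 in wild-type chondrocytes, a log2 fold change of -0.11 (95% interval -0.36 to 0.15, adjusted p = 0.626). The groups overlap on both, and both intervals lie inside a 2-fold change and hold either sign. Fgf10 1420690_at lay under the filter, at 20.1, 34.1 and 8.17 in KO chondrocytes, against 72.3, 5.86 and 28.1 in wild-type chondrocytes. Its arrays scattered in both groups, so that no difference was detectable at this signal.

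Fgf1 (gene 14164, chr18:38838672-38929470), a ligand of all the FGF receptors, and Fgf2 (gene 14173, chr3:37348477-37410106), which is stored in cartilage matrix, were both dim. Fgf2 1449826_a_at had signals of 124, 139.5 and 95.5 in KO chondrocytes, against 146, 107 and 155 in wild-type chondrocytes, with a log2 fold change of -0.17 (SE 0.26, 95% interval -0.76 to 0.41, adjusted p = 0.741). Fgf1 1450869_at had signals of 39.9, 77.8 and 59.9 in KO chondrocytes, against 62.1, 42.4 and 76.9 in wild-type chondrocytes. Its groups overlap almost wholly, with a log2 fold change of -0.03 (SE 0.43, adjusted p = 0.972). The other Fgf1 probe sets lay under the filter, 1423136_at at 16.3 to 48.4 on KO arrays and 31.5 to 65.9 on wild-type arrays, and 1441042_at at 5.1 to 12.7 on KO arrays and 4.39 to 66.9 on wild-type arrays. Fitted with no filter, none of the 3 probe sets under it passed, with log2 fold changes of -0.61, -0.53 and -0.36 and adjusted p of 0.615, 0.755 and 0.847 for 1423136_at, 1441042_at and Fgf10.

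Fgf13 (gene 14168, chrX:59062139-59585572) encodes an FGF homologous factor, which is not secreted in the usual way and is known for binding voltage-gated sodium channels and microtubules in neurons. Probe set 1418497_at had signals of 438, 633 and 505 in KO chondrocytes, against 908, 791 and 710.4 in wild-type chondrocytes. Every KO array lay below every wild-type array. The means were 525 ± 99 in KO and 803 ± 99.3 in wild-type chondrocytes (SD, n = 3 each), a ratio of 0.654 and a log2 fold change of -0.61 (SE 0.15, 95% interval -0.95 to -0.27, adjusted p = 0.0418). Fgf13 lies on the X chromosome, and the difference was -0.16 within the high-Xist pair and -0.84 between the low-Xist means. With the Xist class as a block, adjusted p was 0.0654. The call was also lost without wild-type replicate 1, 2 or 3 (adjusted p = 0.164, 0.145 and 0.0748) and without KO replicate 1 or 3 (adjusted p = 0.0742 and 0.0642).

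The other Fgf13 probe set, 1418498_at, had signals of 127, 109.5 and 102 in KO chondrocytes, against 93.6, 145 and 69.3 in wild-type chondrocytes. The KO arrays lay within the range of the wild-type arrays, with a log2 fold change of 0.18 (SE 0.32, 95% interval -0.52 to 0.88, adjusted p = 0.78). Averaged over both probe sets it was -0.22 (adjusted p = 0.497).

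**Figure D3:**
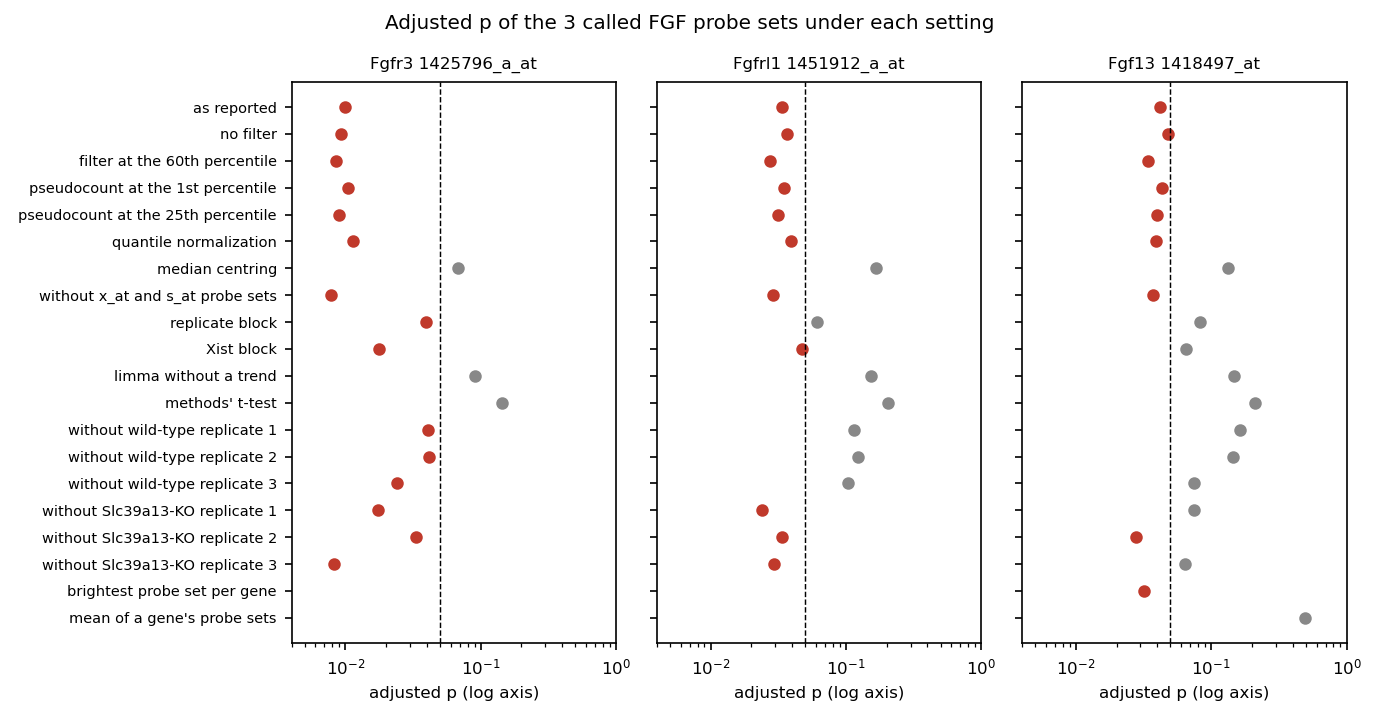
Adjusted p (log axis) of the 3 called probe sets under the reported setting and each alternative that gives a value for them, with the dashed line at 0.05, red for past it and gray for not. Fgfr3 1425796_a_at was past it in 14 of 17 alternatives, Fgfrl1 1451912_a_at in 10 of 17 and Fgf13 1418497_at in 8 of 19.

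Among the 4 probe sets whose groups did not overlap, 3 were higher and 1 lower, where over all tested probe sets 15.1% were apart and higher and 13.7% apart and lower. Of the 14 FGF probe sets that did not pass, 11 had a 95% interval inside a 2-fold change either way. The 3 others were the dim probe sets 1436551_at of Fgfr1, 1443211_at of Fgfr2 and 1449545_at of Fgf18. The median coefficient of variation over the 17 was 14.2% among KO arrays and 12.3% among wild-type arrays, and it was 15.6% and 10.2% over all tested probe sets.

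Other genes of the pathway were listed by role, 93 in all, and 67 passed the filter, 1 probe set per gene. Of these 4 were higher, 9 lower and 54 did not pass, with a median log2 fold change of -0.01, where 4.64% of all genes were higher and 4.67% lower. After median centring 1 was higher and 5 lower, without KO replicate 3 8 were higher, and without wild-type replicate 1 5 were lower. Of the remaining FGF ligands and Fgfr4, 6 of 17 passed the filter and 1 was higher, Fgf21, an endocrine FGF better known from liver. Fgf21 had signals of 431, 355 and 428 in KO chondrocytes, against 165, 121 and 169 in wild-type chondrocytes, with a log2 fold change of 1.38 (SE 0.19, adjusted p = 0.00277). The groups lie well apart, and this was a larger change than that of any of the 17 FGF receptor and ligand probe sets.

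Of 22 tested co-receptor, FLRT and heparan sulfate genes 2 were higher and 3 lower. Flrt2 and Flrt3 encode membrane proteins that bind FGF receptors. Flrt2 had signals of 433, 417 and 432 in KO chondrocytes, against 701, 796 and 1071 in wild-type chondrocytes (log2 fold change -0.97, adjusted p = 0.00495), and 1 of its 2 other probe sets passed in the same direction. Flrt3 had signals of 133, 179 and 192 in KO chondrocytes, against 271, 318 and 306 in wild-type chondrocytes (log2 fold change -0.82, adjusted p = 0.0292). Its call was lost without wild-type replicate 1, 2 or 3 (adjusted p = 0.0771, 0.137 and 0.113) and without KO replicate 2 (adjusted p = 0.0516). The 1 other probe set of Flrt3 did not pass, and averaged over both the log2 fold change was -0.43 (adjusted p = 0.254). Sdc3, the heparan sulfate proteoglycan syndecan-3, had signals of 1539, 1642 and 1813 in KO chondrocytes, against 1156, 1188 and 995 in wild-type chondrocytes (log2 fold change 0.58, adjusted p = 0.00763), with 0 of 2 other probe sets passing and 0.44 as the mean of all 3 (adjusted p = 0.0908). Hs6st2, a heparan sulfate sulfotransferase, had signals of 3998, 4518 and 5111 in KO chondrocytes, against 6289, 6439 and 5559 in wild-type chondrocytes (log2 fold change -0.43, adjusted p = 0.0281). It did not pass without wild-type replicate 1 or 2 or KO replicate 2 (adjusted p = 0.106, 0.131 and 0.0741). Neither of its 2 other probe sets passed, and averaged over all 3 it was -0.04 (adjusted p = 0.84). The groups of these 4 genes did not overlap, and after median centring Flrt3, Sdc3 and Hs6st2 did not pass.

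Of 23 tested genes of signal transduction 1 passed, Snai1, a transcription factor downstream of FGFR3 in mouse cartilage. It had signals of 1363, 1346 and 1183 in KO chondrocytes, against 860.2, 918 and 821 in wild-type chondrocytes (log2 fold change 0.58, adjusted p = 0.0062), and it did not pass after median centring. Of 16 tested genes listed as responding to FGF and ERK signaling, 0 were higher, 6 lower and 10 did not pass. Unadjusted, 1 was higher and 7 lower by limma, and 1 and 6 by the methods' t-test. The median log2 fold change of the 16 was -0.27, against 0.01 over all genes. Fold changes were negative for 12 and positive for 4, among them Fos (1.01), Dusp9 (0.53) and Egr1 (0.46). Fos, the 1 higher by limma unadjusted, had 2390, 1024 and 742 in KO chondrocytes, against 661, 607 and 545 in wild-type chondrocytes (adjusted p = 0.0872). Ccnd1, which encodes cyclin D1, had signals of 4045, 4288 and 4000.3 in KO chondrocytes, against 9394, 10318 and 10597 in wild-type chondrocytes (log2 fold change -1.29, adjusted p = 6.56e-05). Dusp6, a phosphatase of ERK, had 424, 407 and 469 in KO chondrocytes, against 957, 884 and 811 in wild-type chondrocytes (log2 fold change -1.01, adjusted p = 0.000934). Phlda1 had a log2 fold change of -1.11 (adjusted p = 0.000543). Etv5, for which 0 of 2 other probe sets passed, had one of -0.96 (adjusted p = 0.0102) but did not pass without wild-type replicate 1 or 3 (adjusted p = 0.0574 and 0.0568). Averaged over its probe sets the log2 fold change of Etv5 was -1.1 (adjusted p = 0.0226). Genes of this list respond to other signals too, and whether FGF induces each of them in these chondrocytes was not tested. Mesothelial markers were also lower in KO chondrocytes, while summed signals of chondrocyte, fibroblast, osteoblast and adipocyte markers were higher. The summed signal of skeletal muscle markers was higher too, though 4 of the 5 tested had negative fold changes. Whether any of these differences bears on this list was not tested.

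**Figure D4:**
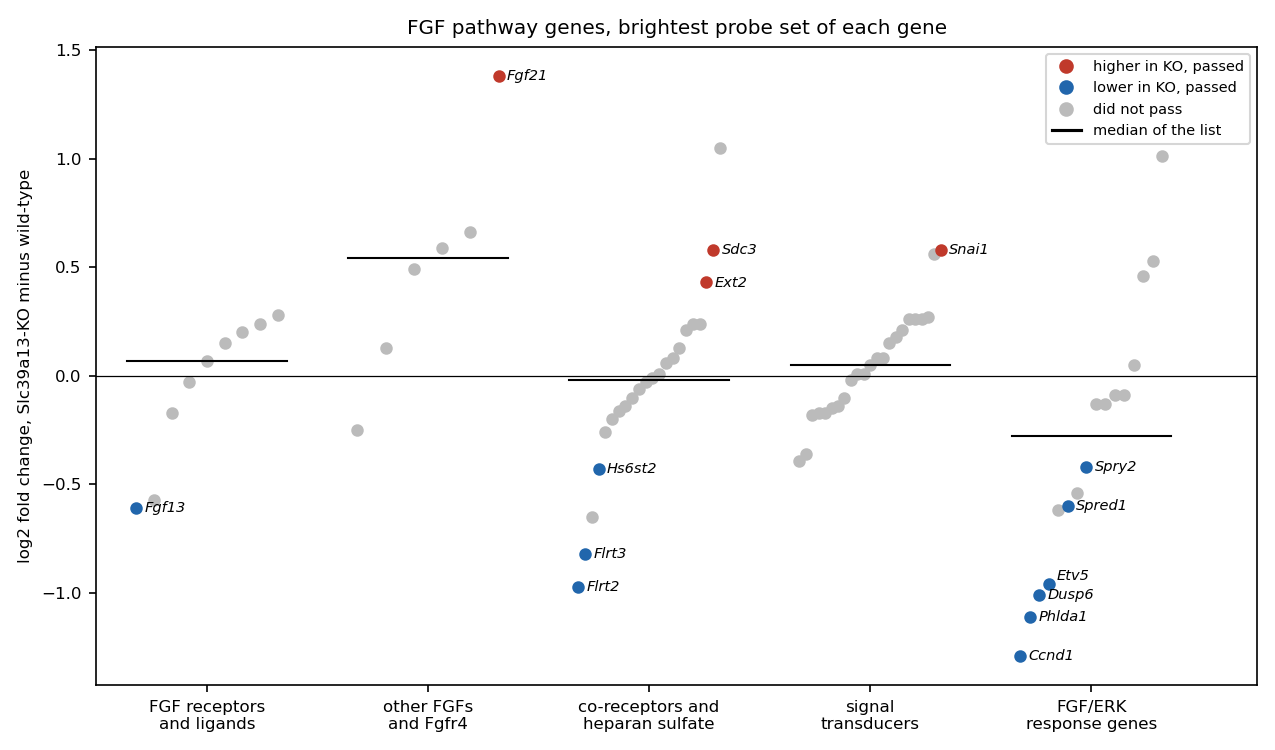
Log2 fold change, KO minus wild type, of each tested gene of the FGF lists on its brightest probe set, with red and blue points for genes that passed as higher and lower in KO chondrocytes, gray points for those that did not pass and a bar at the median of each list. Medians were 0.07 for the receptors and ligands, 0.54 for the other FGFs and Fgfr4, -0.02 for co-receptors and heparan sulfate genes, 0.05 for signal transducers and -0.27 for FGF/ERK response genes. The median of 0.54 is over 6 genes, among them the dim Fgf3, Fgf4, Fgf6 and Fgf9, with group means of 51.5 to 128.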

How the data were processed

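Total RNA was labeled as biotinylated cRNA and hybridized to 6 Affymetrix mouse genome arrays. The deposited intensities are linear MAS5 signals according to the authors' processing notes, while their methods name gcRMA. Each array has the same trimmed mean (500.003 without the 2% at either end), and quantiles are unequal, which is the form of MAS5.

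Probe sets with 1 gene symbol were kept (34945 of 45101). Symbols came from the array annotation, and 34741 were matched by Entrez identifier, which changed 0. The 3 KO arrays were tested against the 3 wild-type arrays by limma 3.58.1 (R 4.3.3; lmFit, eBayes with a trend) on log2(signal + 7.96), the 10th percentile, above the 40th percentile of means. The number of arrays limits precision. Pathway genes were tested on the brightest probe set per gene, over 12715 genes. Named were all probe sets of the 10 genes, up to 4 called genes of each list with the largest changes (2 of lowest p in a list with no call), and the 3 genes most correlated with Fgfr3. The 10 genes and all lists were chosen with earlier results of these data known. Alternatives changed the filter, pseudocount, scaling, probe set rule, block, test and arrays. On simulated data the fits recovered 19.4% of 1.5-fold, 52.2% of 2-fold and 83.3% of 4-fold changes, with 3 false calls among 106. The simulation used independent normal noise and no outlying array, and changed far fewer probe sets than were called here. Its rates may thus differ from those in these data.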

Additional observations from a re-analysis of the deposited data

How the results depend on the processing

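The 3 called FGF probe sets passed with either other pseudocount, with no filter or a stricter one, and with quantile normalization. They also passed when probe sets with the suffix _x_at or _s_at were left out. Those with the suffix _a_at, among them the called ones of Fgfr3 and Fgfrl1, were kept in that setting. Median centring left 0 FGF probe sets higher and 0 lower, 1 and 5 other pathway genes, and 131 and 259 of all probe sets, higher and lower. Limma without a trend gave 0 and 0, 1 and 3, and 47 and 61, and the methods' t-test after Benjamini-Hochberg adjustment 0 and 0, 0 and 1, and 45 and 39. Averaging the probe sets of each gene gave 1 and 0 FGF genes, 2 other pathway genes higher, and 462 and 417 genes in all, and the brightest probe set gave 0 FGF genes higher. A block for the Xist class left 0 FGF probe sets lower. Same-numbered arrays did not deviate together (correlations of 0.033, 0.015 and -0.054, and 2 of 6 arrays closest to their own number). No pairing by replicate number was seen, but so few arrays cannot exclude a weak one. With a replicate block 1 FGF probe set was higher (Fgfr3 1425796_a_at) and 0 lower, with adjusted p = 0.0608 for Fgfrl1 1451912_a_at and 0.0828 for Fgf13 1418497_at, and 415 and 422 of all probe sets were higher and lower.

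With each array left out in turn, 1 to 2 FGF probe sets were higher and 0 to 1 lower, 3 to 8 other pathway genes higher and 5 to 11 lower, and 248 to 1074 of all probe sets higher and 188 to 1209 lower. The lowest counts of all probe sets were without wild-type replicate 2 and the highest without KO replicate 3. The difference between the responses of the Fgfr3 probe sets was 0.46 to 0.69. Fold changes that turned their sign all belonged to probe sets that did not pass. Fgfr1 1425911_a_at had -0.06 as the mean of its probe sets and between -0.06 and 0.34 as arrays were left out (-0.06 without KO replicate 1). Fgf7 1422243_at had -0.02 with median centring and with the mean of probe sets, and between -0.02 and 0.16 over all alternatives, with 0 without KO replicate 2 and -0.01 without wild-type replicate 3. Fgf1 1450869_at had -0.24 to 0.19 as arrays were left out, above 0 lacking wild-type replicate 3 (0.14) or KO replicate 1 (0.19). Fgf13 1418498_at had -0.05 to 0.44, below 0 lacking wild-type replicate 3. The causes were not tested. With 3 arrays per group, the intervals of Fgf18 and of the dim probe sets of Fgfr1 and Fgfr2 reach past a 2-fold change.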
